A study of Mus musculus with 20 samples.

Results

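The genotype by diet interaction asks whether the liver's response to diet depended on the gene Scd1. It was read from all 20 of the 20 liver arrays of the study and described over the 16188 genes measured above the detection floor on at least 1 array. For each gene it is the knockout minus wild type difference on the very low fat diet, minus the same difference on chow, in log2 units. The same number is the diet response of the knockout minus the diet response of the wild type. A value above 0 means that the diet moved the gene further up, or less far down, in the knockout than in the wild type.

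Mice were wild type (Scd1+/+) or homozygous knockout (Scd1-/-) and ate chow or a very low fat, high carbohydrate diet (VLF diet, TD03045 from Harlan Teklad). Each of the 4 groups held 5 individual livers, each hybridized as total RNA to its own Affymetrix Mouse 430 2.0 array, and per the design text the study searched for changes particular to the knockout on the VLF diet. Age, sex, strain, the time on the diet, the feeding state and the design of the knockout allele were not stated in the labels. The RNA came from whole frozen liver pieces, so that fewer cells of a type and less RNA per cell cannot be told apart in any result here.

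Stearoyl-CoA desaturase 1, the product of Scd1, puts the double bond into saturated fatty acids and so supplies the liver with oleate and palmitoleate. A diet poor in fat and rich in carbohydrate brings little unsaturated fat and drives the liver to build fatty acids from sugar, through a program of enzymes under the transcription factors SREBP-1c and ChREBP. Desaturation is a late step of that program, and the knockout on this diet lacks both its main dietary and its main hepatic source of monounsaturated fat.

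Scd1 itself followed the labels. In wild-type chow livers its normalized intensity was 7630, 6500, 8810, 10400 and 9930, and on the VLF diet 20300, 17100, 16800, 18800 and 17700. Knockout values were 51.9, 51.3, 29.1, 39.4 and 57.9 on chow and 28.4, 36.9, 27.1, 33.8 and 31.2 on the VLF diet. All wild-type values lay far above all knockout values, and the 2 wild-type diets did not overlap. The sources do not say which part of Scd1 was deleted or whether the probe set falls in it, and the knockout signal is near the array background. Scd1 counted among the genes that rose in wild type and fell in knockout (interaction -1.60 ± 0.23), and it was left out of the gene lists below.

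Normalized values correlated between arrays of a group at a mean r of 0.984 to 0.993, and 26.9% to 28.5% of probe sets lay at the floor of 16 on an array. The ratio of 3' to 5' signal of the actin control, a measure of RNA integrity and labelling in which intact RNA is nearer 1, averaged 2.70 in wild-type chow, 2.19 in wild-type VLF, 2.25 in knockout chow and 1.82 in knockout VLF livers. These ratios moved with genotype and with diet, and their part in the results was not tested. Replicate 3 of the knockout chow group stood apart from the other 4, with the lowest within-group correlation, and its values are named where they matter. Wild-type VLF replicate 3 had Xist, an X-linked RNA of female cells, at the floor of 16 by its brightest probe set, against 1230 to 1940 on the other 19 arrays. The Y-linked genes Eif2s3y and Uty lay at the floor on all 20 arrays. Without that array 4131 genes were called for the interaction, and 4056 of them were among the 4403 called with it.

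The interaction was widespread, and nearly all of it came from livers of the knockout on the VLF diet. It was called (limma, Benjamini-Hochberg adjusted p under 0.05 over all probe sets tested) in 4403 of 16188 genes, or 27.2%. Of these, 2206 were higher (13.6% of measured genes) and 2197 were lower (13.6%). Called genes with a log2 interaction of at least 1 in size numbered 608 higher and 566 lower, and 31 were higher and 27 lower by at least 3. The median standard error of the interaction was 0.13 in log2. Genotype on the VLF diet was called in 47.4% of genes and diet within the knockout in 39%, against 3.3% for genotype on chow (1.38% higher and 1.91% lower in knockout) and 1.76% for diet within the wild type.

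Values are relative to the whole array. When arrays were instead centred on the spiked hybridization controls, the median interaction over all genes was 0.34, and 3965 genes were called higher and 618 lower (86.5% higher, against 50.1%). Of the 4403 calls, 2822 were kept in that setting and 0 turned. With 618 genes lower in all, against 2197 in the main fit, most of the lower calls were lost. The even split of higher and lower calls thus depends on the reference. Small negative values, between about 0 and this shift, therefore depend on the reference chosen. Larger negative values could lose their call too, among them Cyp7a1 (-2.33) and Cpt1a (-0.92), where the median of all lower calls was -0.67. Lists whose median changes sign are named as such below. List counts under this centring are to be read against its own 3965 higher and 618 lower of 16174 measured genes. The 13.6% each way of the main fit does not apply to them.

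The called genes were sorted by which genotype's own diet response was called. In 3970 genes (90.2% of the calls) only the knockout response was called, 2039 upward and 1931 downward relative to the wild type. Only the wild-type response was called in 50 genes. Both were called in opposite directions in 78 and in the same direction but to different extents in 52, and neither was called in 253. These smaller classes were sensitive to single arrays and to the reference, as given under the dependence on processing. Centred on hybridization controls, the opposite class held 6 genes and the wild-type-only class 18. More genes than those 6 are described below as reversing, so some of them were not in the opposite class in that setting. Each contrast was adjusted on its own, so a response left uncalled is not shown to be absent. In Cyp17a1, of the knockout-only class, wild-type livers were 642 to 1690 on chow and 2430 to 3570 on the VLF diet (limma adjusted p = 0.0979). All 5 knockout VLF values lay above all 15 other arrays in 1709 genes, 1511 of them called, and below all 15 in 1586 genes, 1390 of them called. The same count for wild-type VLF livers was 72 above and 45 below, for wild-type chow 59 and 28, and for knockout chow 26 and 11.

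**Figure D1:**
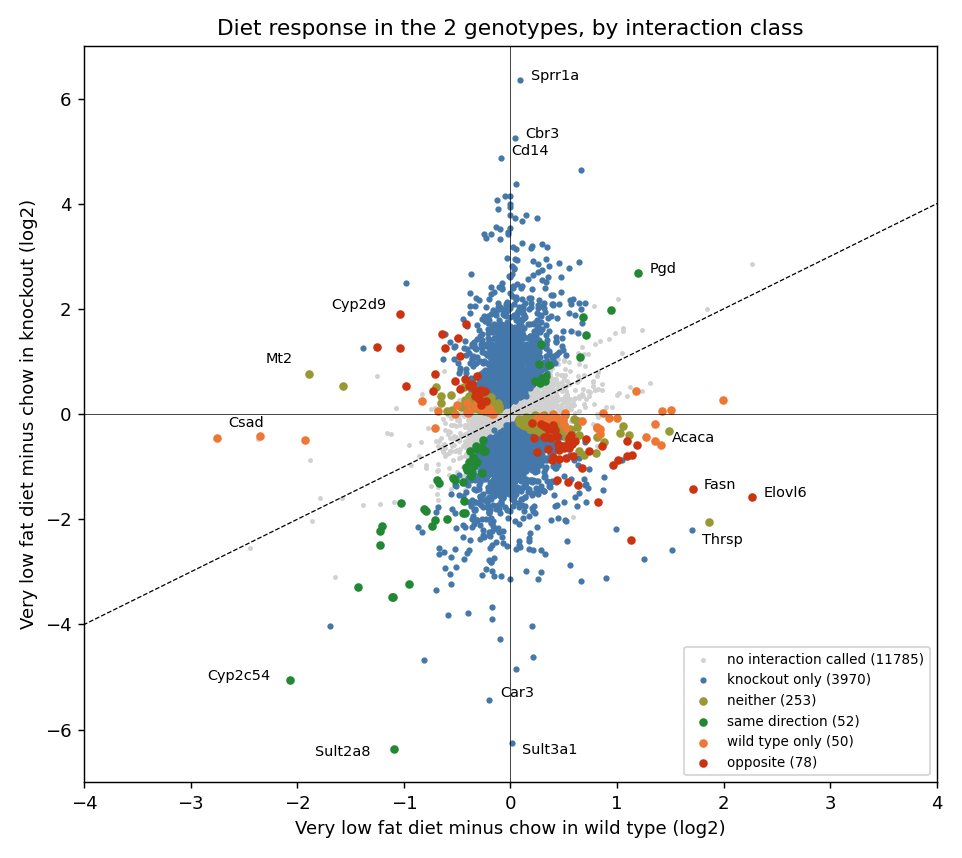
Diet response (VLF minus chow, log2) in wild type on the x axis and knockout on the y axis, 1 point per measured gene, coloured by which genotype's response was called (number of genes in the key). Points on the dashed line respond alike in both genotypes. The 3970 genes of the knockout-only class spread along the y axis, and the lipogenic genes Elovl6 and Fasn lie at the lower right.

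Fatty acid synthesis genes included reversals. Fatty acid synthase (Fasn) and the palmitate elongase Elovl6 rose on the VLF diet in the wild type and fell on it in the knockout, while on chow the genotypes had like means. Fasn was 1070, 834, 1400, 1680 and 866 in wild-type chow livers and 4910, 2460, 2550, 6690 and 3280 in wild-type VLF livers. It was 1660, 1050, 926, 931 and 851 in knockout chow livers and 323, 385, 384, 476 and 409 in knockout VLF livers. The chow groups overlapped, whereas wild-type VLF lay above and knockout VLF below every chow value. The diet response was 1.71 in wild type and -1.42 in knockout, an interaction of -3.13 ± 0.37 (log2, estimate ± SE here and below; limma adjusted p = 5.83e-06).

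Elovl6 was 496, 399, 694, 661 and 374 in wild-type chow and 3990, 1430, 1740, 4650 and 1920 in wild-type VLF livers. Livers of the knockout had 680, 625, 324, 547 and 459 on chow and 172, 152, 185, 171 and 175 on the VLF diet. Again the chow groups overlapped and the VLF groups lay on either side of them, with an interaction of -3.85 ± 0.41 (limma adjusted p = 1.78e-06). In both genes the wild-type VLF livers fell into 3 lower and 2 higher values, replicates 1 and 4 being the higher.

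Of 16 fatty acid synthesis genes 13 were called lower and 1 higher, with a median interaction of -1.85 against 0 for all genes. Of all measured genes 13.6% were called in each direction, the share against which each list count of the main fit is to be read. Their median diet response was 1.03 in wild type and -0.68 in knockout. In wild type 7 of the 16 rose (0.883% of all measured genes did) and 0 fell, in knockout 8 fell (19.8% of all genes) and 1 rose, and 0 were called for genotype on chow. The desaturase Fads2, which acts on polyunsaturated fatty acids, and Acacb, the acetyl-CoA carboxylase of mitochondria, also reversed, with interactions of -1.94 ± 0.24 and -1.92 ± 0.37. Fads2 went from 1430 ± 152 to 2790 ± 319 (mean ± SD, n = 5 per group throughout) in wild type and from 1170 ± 50.2 to 623 ± 210 in knockout.

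Other members rose in the wild type with no called response in the knockout. Acaca, the cytosolic acetyl-CoA carboxylase, went from 671 ± 61.5 to 1940 ± 948 in wild type and from 605 ± 132 to 400 ± 64.9 in knockout (interaction -1.99 ± 0.33). The malic enzyme Me1, which makes NADPH for the pathway, had -1.88 ± 0.38, although its call was lost when probe sets that can match several transcripts were left out (adjusted p = 0.167). The elongase Elovl5 had -1.07 ± 0.20. Acly and Acss2, which make acetyl-CoA from citrate and from acetate, were called for the interaction (-1.28 ± 0.40 and -1.81 ± 0.55) with neither diet response called alone. Their calls were lost in 6 and 4 of the alternative settings, leave-one-out settings among them.

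Srebf1, which encodes SREBP-1, fell in the knockout from 1400 ± 217 to 606 ± 179, and was 1520 ± 210 and 2270 ± 433 in wild type, where the diet response was not called (interaction -1.80 ± 0.24). Mlxipl, which encodes ChREBP, was 867 ± 83.0 and 793 ± 125 in wild type and fell in the knockout from 691 ± 161 to 248 ± 44.8 (-1.32 ± 0.23). Thrsp, a lipogenic nuclear protein responsive to thyroid hormone and carbohydrate, had the largest interaction of the list, -3.90 ± 0.59. The exception upward was Scd2, a desaturase isoform of other tissues and of neonatal liver. It was 26.9, 43.9, 35.6, 33.0 and 56.7 in wild-type chow and 74.4, 49.6, 32.5, 103 and 49.0 in wild-type VLF livers. Knockout values were 24.8, 45.3, 72.7, 53.2 and 43.6 on chow and 314, 228, 171, 134 and 218 on the VLF diet. The 5 knockout VLF values lay above all others, with an interaction of 1.59 ± 0.45 (limma adjusted p = 0.0162).

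Pklr and Khk, of sugar breakdown, rose in the wild type with no called response in the knockout. Pyruvate kinase of liver (Pklr) went from 470 ± 143 to 1180 ± 263 in wild type and from 526 ± 113 to 455 ± 59.7 in knockout (-1.55 ± 0.30). Ketohexokinase (Khk), the first enzyme of fructose breakdown, had an interaction of -0.84 ± 0.16 by the same pattern. Among isozymes typical of muscle, Pkm, a pyruvate kinase, and Aldoa, an aldolase, rose in the knockout alone (1.82 ± 0.16 and 1.23 ± 0.23). The muscle phosphofructokinase Pfkm fell in the knockout alone, from 199 ± 21.3 to 150 ± 7.28 (-0.34 ± 0.11). Of 14 measured glycolysis genes 7 were higher and 3 lower (50% and 21.4%, against 13.6% of all genes each way).

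**Figure D2:**
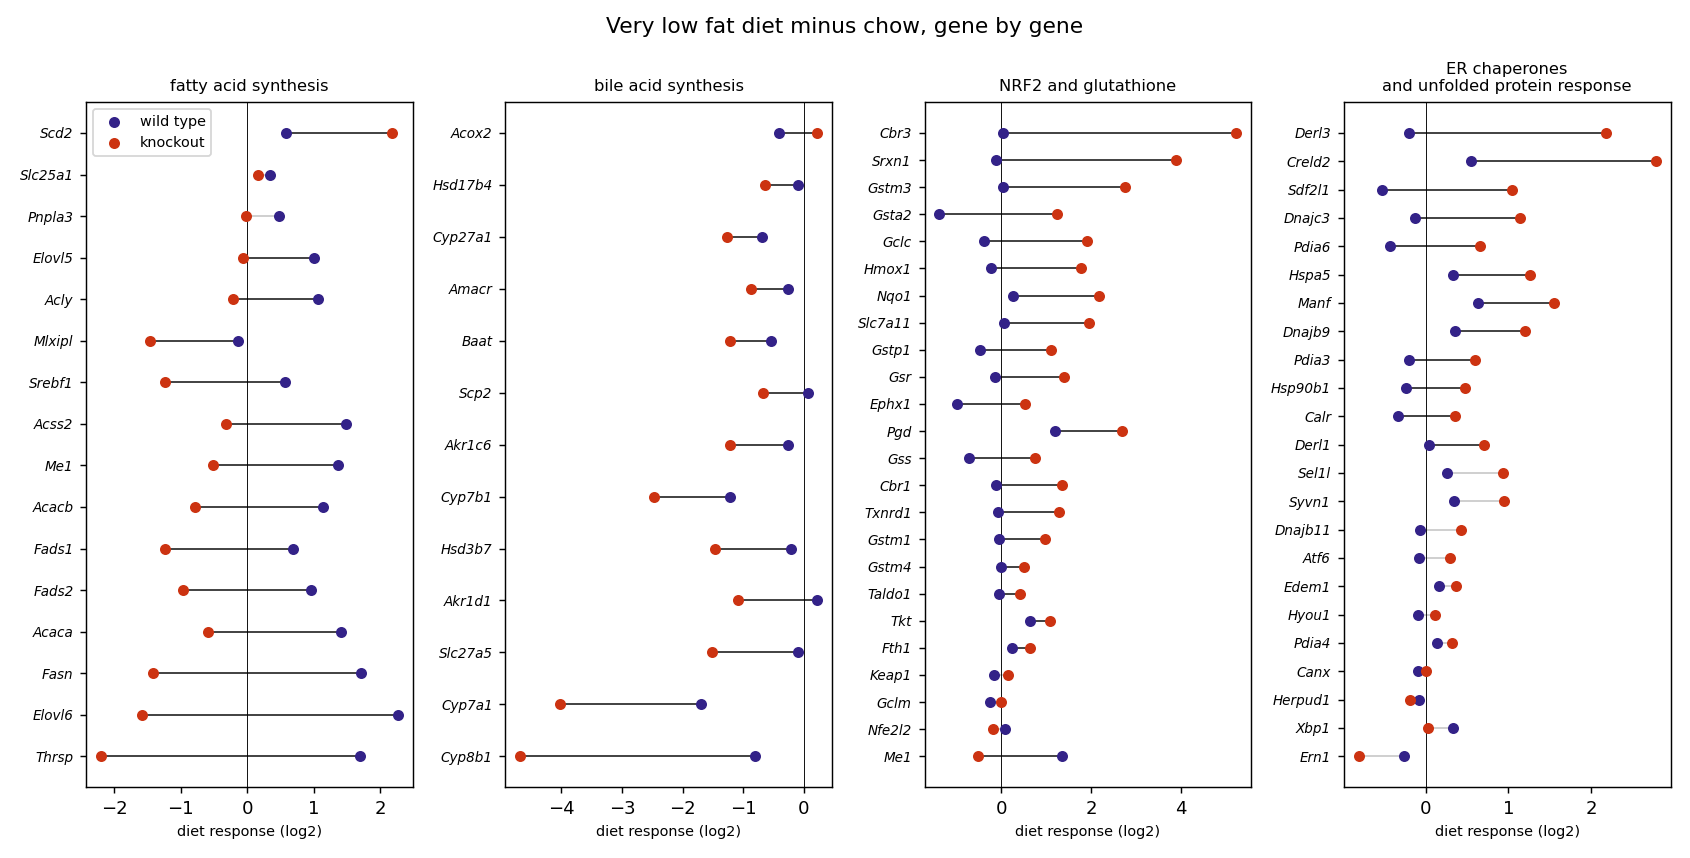
Diet response (VLF minus chow, log2) of each measured member of 4 gene lists in wild type (dark blue) and knockout (red), ordered by interaction; a dark connecting line marks a called interaction and a pale line an uncalled one. Fatty acid synthesis genes lie mostly to the right of 0 in wild type and mostly to the left in knockout. NRF2 and endoplasmic reticulum genes lie mostly to the right in knockout.

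Of 10 measured triglyceride synthesis genes 2 were lower and 0 higher (median -0.09), against 13.6% of all genes each way, and 1 was lower and 2 higher when centred on hybridization controls (median 0.25). Dgat2, which makes triglyceride in hepatocytes, fell in the knockout from 3010 ± 406 to 1020 ± 146 and was 3050 ± 271 and 3350 ± 109 in wild type (-1.71 ± 0.14). Gpam, the first acyltransferase, had -0.79 ± 0.17 from a rise in wild type. Cholesterol synthesis genes gave 5 lower (25%, against 13.6% of all genes) and 0 higher of 20, with a median of -0.30 that became 0.06 under the control centring. The 5 included Sc5d and Tm7sf2, 2 late sterol enzymes (-1.66 ± 0.19 and -1.78 ± 0.31), and Stard4, a sterol carrier (-1.78 ± 0.23). Ebp, a sterol isomerase, had -0.93 ± 0.13.

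Lipid droplet and uptake genes split, 4 higher and 6 lower of 20 (8 higher and 3 lower when centred on hybridization controls, and 6 and 6 without knockout chow replicate 3). Lpl, lipoprotein lipase, which adult liver expresses little, rose in the knockout from 253 ± 53.8 to 2730 ± 646 and was 229 ± 85.6 and 186 ± 22.3 in wild type (3.67 ± 0.29). Cidea, a droplet protein of brown fat, had 2.75 ± 0.30. Fabp1, the main fatty acid binding protein of hepatocytes, fell in the knockout from 16200 ± 957 to 6280 ± 1670 (-1.51 ± 0.17). Fabp2, its intestinal relative, reversed, rising in wild type from 1050 ± 161 to 2380 ± 203 and falling in knockout from 749 ± 137 to 512 ± 150 (-1.77 ± 0.24).

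Bile acid synthesis was lower across the pathway. Of 13 members 12 were called lower and 1 higher, with a median of -0.96, and under centring on hybridization controls 4 were lower and 1 higher with a median of -0.58. Cyp8b1, the sterol 12-hydroxylase that sets the share of cholic acid, was 1430, 640, 2290, 1910 and 2180 in wild-type chow and 997, 946, 735, 1720 and 437 in wild-type VLF livers. Livers of the knockout had 1790, 746, 883, 3230 and 1760 on chow and 68.5, 59.5, 57.5, 45.6 and 57.1 on the VLF diet. The first 3 groups overlapped and the fourth lay far below, with an interaction of -3.86 ± 0.58 (limma adjusted p = 7.22e-05). Cyp7a1, the rate-limiting enzyme, was 1530 ± 870 and 457 ± 200 in wild type and 1590 ± 825 and 93.2 ± 45.3 in knockout. The diet response was called in the knockout and not in the wild type (limma adjusted p = 0.107 in wild type). Its interaction was -2.33 ± 0.68 (limma adjusted p = 0.0204, and 0.0601 when centred on hybridization controls). Another Cyp7a1 probe set gave -1.42 ± 0.65 and was not called (limma adjusted p = 0.171). Slc27a5, which activates bile acids for conjugation, had -1.43 ± 0.15 and Hsd3b7 -1.26 ± 0.14. Acox2, a peroxisomal side-chain oxidase, was the member called higher (0.61 ± 0.13) through a fall in wild type, from 1300 ± 85.6 to 981 ± 98.7.

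Transport of bile acids and organic anions changed on both faces of the hepatocyte. Of 6 measured uptake genes 4 were lower and 0 higher, with a median of -1.72, and without knockout chow replicate 3 all 6 were lower. Slc10a1, the sodium-taurocholate carrier NTCP, fell in the knockout from 6540 ± 600 to 2020 ± 563 and was 5450 ± 1090 and 7310 ± 653 in wild type (-2.17 ± 0.22). Slco1b2 and Slco2b1, organic anion carriers, had -2.24 ± 0.24 and -1.41 ± 0.14, and Slc22a7 had -1.99 ± 0.34.

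Of 6 basolateral efflux genes 4 were higher and 0 lower, with a median of 1.22. Abcc4, the blood-side exporter MRP4, was 32.8 to 59.7 in wild-type chow, 43.2 to 57.5 in wild-type VLF, 50.5 to 68.4 in knockout chow and 338 to 542 in knockout VLF livers, which did not overlap the rest (2.60 ± 0.21, limma adjusted p = 8.29e-08). Slc51b, a subunit of the bile acid exporter OST, had 2.12 ± 0.20 and Abcc1 1.36 ± 0.13. Abcc3 was higher (1.07 ± 0.18) through a fall in wild type from 835 ± 68.9 to 471 ± 72.3. At the canalicular face 3 of 10 were higher and 3 lower (median -0.06), against 13.6% of all genes each way. The counts were 3 and 1 when centred on hybridization controls (0.13). The multidrug exporters Abcc2 and Abcb1a had 1.27 ± 0.10 and 1.70 ± 0.28, and the phospholipid exporter Abcb4 0.81 ± 0.16. Slc47a1, a cation exporter, had -1.23 ± 0.15, and the bile salt export pump Abcb11 -0.75 ± 0.23, a call lost in 8 settings (adjusted p up to 0.351).

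Of 25 measured genes of mitochondrial oxidation and ketogenesis 14 were lower and 3 higher (median -0.51), and with centring on hybridization controls 6 lower and 3 higher (-0.21). Acat1, which makes and uses acetoacetyl-CoA, fell in the knockout from 2920 ± 408 to 517 ± 78.5 and was 3130 ± 440 and 3080 ± 513 in wild type (-2.47 ± 0.19). Echs1 and Hadh, steps of the oxidation spiral, had -1.12 ± 0.09 and -0.99 ± 0.11. Cpt1a, the entry step, had -0.92 ± 0.17 (limma adjusted p = 0.000706; 0.0654 under the control centring). The 3 higher members were Pdk4, a kinase that blocks pyruvate dehydrogenase (2.94 ± 0.56), Acot2, a mitochondrial thioesterase (1.05 ± 0.24), and the coactivator Ppargc1a (1.26 ± 0.38), whose call was lost in 6 settings. Peroxisomal genes gave 17 lower and 0 higher of 21 (median -0.80), or 7 lower and 1 higher under the control centring. Hacl1, of branched-chain alpha-oxidation, had -2.31 ± 0.18, Pecr -1.88 ± 0.21 and Decr2 -1.61 ± 0.16.

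Respiratory chain genes, 17 lower and 0 higher of 30 with a median of -0.28, changed sign to 2 higher and 0 lower with a median of 0.03 when centred on hybridization controls. Ndufs1 and Ndufb5, complex I subunits, had -0.77 ± 0.10 and -0.70 ± 0.07, and both calls were lost in that setting. Urea cycle and amino acid breakdown genes gave 11 lower and 0 higher of 22 (median -0.62; 6 lower and 2 higher under the control centring). Otc of the urea cycle had -1.40 ± 0.10, and Hpd and Fah of tyrosine breakdown had -1.34 ± 0.11 and -1.02 ± 0.10. Among gluconeogenesis and insulin signalling genes 2 were higher and 6 lower of 14, and 2 and 2 under that centring. The insulin receptor Insr had -1.09 ± 0.07 and Pck1, a rate-setting enzyme of glucose production, -0.73 ± 0.20, a call lost under the control centring (adjusted p = 0.163). The 2 higher were Irs2, an adaptor of the insulin receptor (0.88 ± 0.21), and Igfbp1 (1.93 ± 0.66, limma adjusted p = 0.0492), a call lost in 18 settings.

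**Figure D3:**
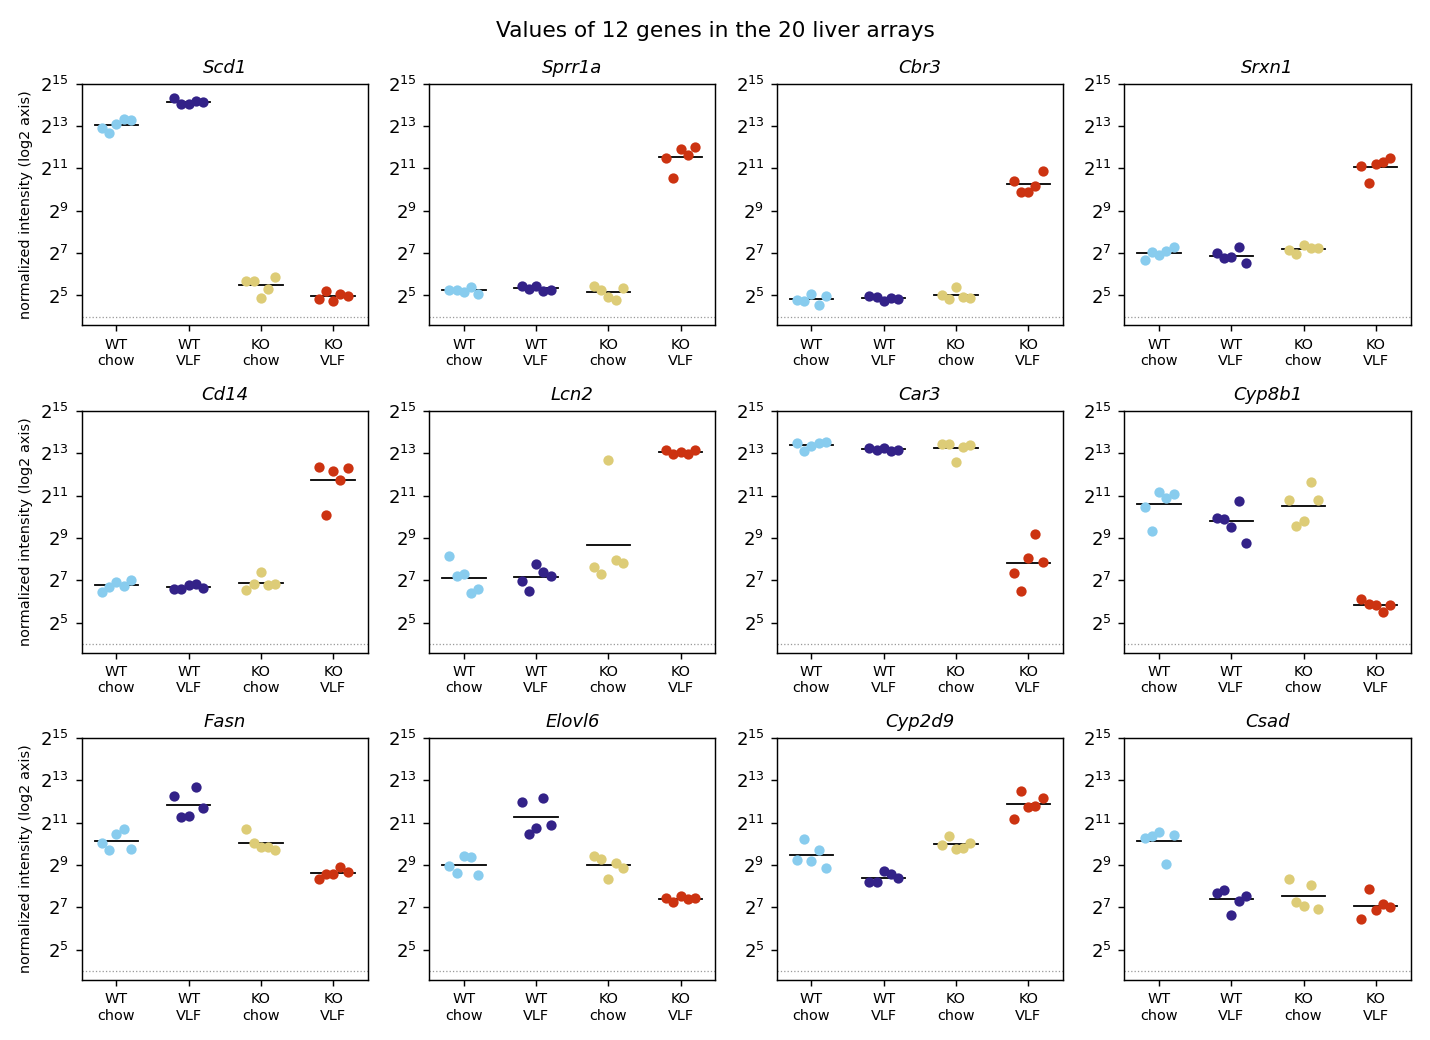
Normalized intensity (log2 axis) of 12 genes on the 20 arrays, 5 per group; WT is wild type, KO knockout and VLF the very low fat diet. Each dot is 1 liver, each bar the mean of the log2 values and the dotted line the floor of 16. Sprr1a, Cbr3, Srxn1 and Cd14 stand apart only in the knockout VLF group, and Lcn2 is also high in knockout chow replicate 3.

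The largest positive interaction was that of Sprr1a. This cornified envelope protein, induced in injured epithelia, was 38.9, 38.4, 36.1, 42.8 and 33.3 in wild-type chow and 44.0, 39.6, 43.0, 37.0 and 38.2 in wild-type VLF livers. It was 43.6, 38.2, 30.6, 27.5 and 40.6 in knockout chow and 2840, 1480, 3920, 3170 and 4140 in knockout VLF livers. The first 3 groups overlapped near the array background and the last stood alone, giving 6.27 ± 0.29 (limma adjusted p = 8.99e-11). Ly6d, another surface protein of squamous epithelia, had 4.00 ± 0.33, and the membrane-binding annexin Anxa2 3.99 ± 0.18. Another Anxa2 probe set gave 0.57 ± 0.17. Of 18 annexin and S100 genes 10 were higher and 2 lower.

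Most listed genes that the oxidative stress factor NRF2 is known to control were higher. Of 24 measured, 20 were higher and 1 lower (Me1, also a lipogenic gene), with a median of 1.48, a median diet response of -0.06 in wild type and 1.18 in knockout. The 3 members not called included Gclm (0.25) and Nfe2l2 (-0.28), which encodes NRF2 itself. Cbr3, a carbonyl reductase, was 27.6, 26.6, 33.1, 23.7 and 31.4 in wild-type chow and 31.2, 30.2, 26.6, 29.2 and 28.4 in wild-type VLF livers. It was 32.7, 28.6, 42.4, 30.2 and 29.0 in knockout chow and 1370, 943, 952, 1150 and 1870 in knockout VLF livers. No knockout VLF value overlapped any other, and the interaction was 5.20 ± 0.22 (limma adjusted p = 3.25e-11).

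Srxn1, which repairs oxidized peroxiredoxins, went from 147 ± 16.3 to 2240 ± 596 in knockout and was 130 ± 19.4 and 120 ± 24.6 in wild type (4.01 ± 0.26). Glutathione reductase (Gsr) had 1.53 ± 0.08, thioredoxin reductase (Txnrd1) 1.35 ± 0.14 and the quinone reductase Nqo1 1.89 ± 0.28. Several detoxifying genes fell in the wild type and rose in the knockout. Ugdh, which makes UDP-glucuronate, was 929, 831, 745, 1050 and 986 in wild-type chow and 593, 424, 535, 706 and 681 in wild-type VLF livers. Knockout values were 746, 858, 1170, 782 and 792 on chow and 2380, 2100, 2540, 2710 and 2710 on the VLF diet. The chow groups overlapped, and the VLF groups lay below and above them (2.17 ± 0.20). Gstp1, a glutathione transferase, had 1.58 ± 0.13, the epoxide hydrolase Ephx1 1.51 ± 0.16 and glutathione synthetase (Gss) 1.47 ± 0.21 by the same reversal. Pgd, of the pentose phosphate pathway, rose in both genotypes, from 373 ± 57.4 to 894 ± 347 in wild type and from 437 ± 66.8 to 2830 ± 505 in knockout (1.49 ± 0.28).

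The metallothioneins Mt1 and Mt2, metal-binding antioxidant proteins, had interactions of 2.10 ± 0.57 and 2.66 ± 0.65 with neither diet response called. Mt2 was 1550, 1610, 2410, 1750 and 3360 in wild-type chow, 307, 263, 1170, 578 and 926 in wild-type VLF, 3270, 1200, 8410, 2150 and 2730 in knockout chow and 6180, 4690, 6370, 3220 and 4720 in knockout VLF livers. The 2 wild-type groups did not overlap and the 2 knockout groups did, through knockout chow replicates 1 and 3. The Mt1 call was lost when its probe sets were averaged or when probe sets that can match several transcripts were left out (adjusted p up to 1).

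The amino acid response governed by ATF4 gave 14 higher and 2 lower of 26, with a median of 0.78. Psat1, a serine synthesis enzyme, lay at the floor of 16 on all 15 other arrays and was 239, 167, 233, 271 and 352 in knockout VLF livers, so that its interaction of 3.94 ± 0.17 depends on the floor. Atf3, a stress-induced transcription factor, was 18.8 to 25.4 on those 15 arrays and 253, 197, 315, 405 and 301 in knockout VLF livers (3.68 ± 0.19). Ddit3, which encodes CHOP, rose in the knockout from 140 ± 21.2 to 1620 ± 895 and was 180 ± 16.2 and 154 ± 22.4 in wild type (3.58 ± 0.40). The glycyl-tRNA synthetase Gars had 1.63 ± 0.12 and the amino acid carrier subunit Slc3a2 1.82 ± 0.16.

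Asns, asparagine synthetase, was 36.8 to 52.0 in wild-type chow and 40.9 to 52.2 in wild-type VLF livers. In knockout chow livers it was 43.7, 45.7, 282, 42.6 and 44.6, and in knockout VLF livers 330, 335, 374, 306 and 461. Knockout chow replicate 3 lay near the VLF group, and the interaction was 2.42 ± 0.53 with it and 2.96 without it (limma adjusted p = 0.00243 and 1.04e-09). The hormone Fgf21 (0.80 ± 0.29, limma adjusted p = 0.0677) and the growth inhibitor Ddit4 (1.26 ± 0.59, 0.177) were not called. Without that array both were called (0.91 and 1.64, limma adjusted p = 0.0352 and 0.0263), as both were with array weights. Fgf21 was also called under centring on hybridization controls and without knockout VLF replicate 2, where its limma adjusted p was 0.00108. The 2 lower members were Atf5 (-0.83 ± 0.19) and the mitochondrial serine enzyme Shmt2 (-0.57 ± 0.15), both lost under centring on hybridization controls.

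Chaperones of the endoplasmic reticulum gave 12 higher and 0 lower of 23, with a median of 0.67. Derl3, which retrieves misfolded proteins for degradation, was 119 to 164 in wild-type chow, 105 to 137 in wild-type VLF, 102 to 122 in knockout chow and 428 to 653 in knockout VLF livers, which stood alone (2.38 ± 0.16, limma adjusted p = 7.38e-09). Creld2, a secreted stress-induced chaperone, had 2.22 ± 0.41, and the co-chaperone Dnajc3 1.27 ± 0.17, a call lost when the gene's probe sets were averaged (adjusted p = 0.191). Hspa5, which encodes BiP, the main chaperone of this compartment, rose in the knockout from 4220 ± 705 to 10200 ± 1850 and was 3290 ± 355 and 4210 ± 1090 in wild type (0.93 ± 0.23). Pdia6, a disulfide isomerase, and Calr, a calcium-binding chaperone, fell in the wild type and rose in the knockout (1.09 ± 0.12 and 0.68 ± 0.10).

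The promoters of these genes were searched for the ER stress element, a motif known from chaperone promoters. The element, spelled CCAAT, then any 9 bases, then CCACG, and searched on both strands in the 300 bases from 250 before to 50 after the gene's start (RefSeq, GRCm38.p6), occurred in 9 of the 19 members with a promoter in the table and in 7 of the 10 matched members called higher. It occurred in 20 of 12904 measured genes with a promoter (0.155%). The 3 promoters below belong to members with large or reversing interactions, with the element in capitals in the orientation of the gene. Each match is a description of letters and not evidence of a bound site, and each motif was searched on its own, so matches of different motifs may overlap.
Derl3, chr10:75893148-75893447, plus strand: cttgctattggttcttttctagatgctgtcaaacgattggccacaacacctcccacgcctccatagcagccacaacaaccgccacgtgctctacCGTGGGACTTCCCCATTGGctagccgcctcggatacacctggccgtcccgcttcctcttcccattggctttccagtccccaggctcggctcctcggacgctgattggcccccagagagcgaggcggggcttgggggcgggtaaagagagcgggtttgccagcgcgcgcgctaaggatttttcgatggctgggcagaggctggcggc
Creld2, chr15:88819396-88819695, plus strand: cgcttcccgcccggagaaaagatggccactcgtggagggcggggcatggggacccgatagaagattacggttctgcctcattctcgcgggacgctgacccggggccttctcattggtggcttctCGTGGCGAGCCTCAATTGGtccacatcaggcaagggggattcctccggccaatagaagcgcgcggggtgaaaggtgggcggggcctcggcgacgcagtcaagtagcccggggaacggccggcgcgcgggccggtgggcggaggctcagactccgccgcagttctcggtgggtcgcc
Pdia6, chr12:17266339-17266638, plus strand: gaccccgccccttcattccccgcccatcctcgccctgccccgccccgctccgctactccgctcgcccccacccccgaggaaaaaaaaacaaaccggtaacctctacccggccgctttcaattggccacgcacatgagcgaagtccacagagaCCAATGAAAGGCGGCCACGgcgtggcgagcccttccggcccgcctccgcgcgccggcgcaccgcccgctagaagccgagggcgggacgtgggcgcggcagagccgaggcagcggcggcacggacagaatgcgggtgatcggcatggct

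The other stress lists were searched in the same way. The C/EBP-ATF composite element TGATGNAA occurred in 7 of 22 matched members of the ATF4 list, in 4 of the 11 called higher, and in 3.08% of measured genes. The antioxidant response element TGACNNNGC occurred in 6 of 21 matched NRF2 members, in 3 of the 17 called higher, and in 16.4% of measured genes. The promoters of Asns and Srxn1 show the match in capitals in a member called higher from each list.
Asns, chr6:7693160-7693459, minus strand: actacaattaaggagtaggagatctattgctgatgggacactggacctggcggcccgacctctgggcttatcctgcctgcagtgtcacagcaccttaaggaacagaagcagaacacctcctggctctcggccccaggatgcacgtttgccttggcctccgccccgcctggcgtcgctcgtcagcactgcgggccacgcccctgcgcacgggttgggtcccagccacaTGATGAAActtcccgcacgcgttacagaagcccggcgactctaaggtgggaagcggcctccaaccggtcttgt
Srxn1, chr2:152105274-152105573, plus strand: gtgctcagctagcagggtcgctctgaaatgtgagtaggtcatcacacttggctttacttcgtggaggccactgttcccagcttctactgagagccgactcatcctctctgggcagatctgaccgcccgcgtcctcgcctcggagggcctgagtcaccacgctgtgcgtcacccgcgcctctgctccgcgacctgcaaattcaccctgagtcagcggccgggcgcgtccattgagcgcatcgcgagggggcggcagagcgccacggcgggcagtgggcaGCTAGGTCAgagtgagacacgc

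Cytosolic heat shock chaperones gave 5 higher and 1 lower of 14, with a median of -0.05 that became 0.31 when centred on hybridization controls. The inducible Hspa1a lay at the floor of 16 on the 15 other arrays and averaged 196 ± 75.6 in knockout VLF livers, and Hspa1b had 2.27 ± 0.31. The small chaperone Hspb1 fell in wild type and rose in knockout (2.30 ± 0.33). Hsph1, the lower member (-1.34 ± 0.44), lost its call in 12 settings. Proteasome subunits gave 16 higher and 0 lower of 31, in small steps with a median of 0.29. Psmd8, a lid subunit, had the smallest adjusted p of the genes named: it was 1150 to 1370 in wild-type chow, 1240 to 1310 in wild-type VLF, 1280 to 1390 in knockout chow and 3860 to 4180 in knockout VLF livers (1.62 ± 0.06, limma adjusted p = 5.89e-12).

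Immediate early genes gave 12 higher and 0 lower of 18 (median 1.27). The growth regulators Klf6, Myc and Klf4 had 2.45 ± 0.14, 2.45 ± 0.19 and 2.33 ± 0.19. The p53 and cell death list gave 8 higher and 1 lower of 16. Cdkn1a, the cell cycle inhibitor p21, rose in the knockout from 98.5 ± 63.8 to 1020 ± 209 and was 76.0 ± 29.7 and 68.4 ± 13.2 in wild type (3.63 ± 0.41). Tnfrsf12a, a receptor induced in injured liver, had 3.44 ± 0.17. The lower member was the death receptor Fas (-0.33 ± 0.11, limma adjusted p = 0.0433), a call lost in 17 settings.

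Cell cycle genes rose beside the inhibitor, 17 higher and 0 lower of 26, with a median of 1.27. Birc5, of the mitotic spindle, was 18.4 ± 2.86 and 24.9 ± 13.1 in wild type and 18.2 ± 1.95 and 146 ± 50.9 in knockout (2.61 ± 0.35), with 3 of the 10 chow livers at the floor. The mitotic kinases Cdk1 and Aurka had 1.71 ± 0.24 and 1.55 ± 0.22. Cytoskeleton genes gave 21 higher and 0 lower of 26, among them the tubulin Tubb6 (3.15 ± 0.18) and the actin-binding Tagln2 (2.02 ± 0.11).

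Markers of some cells other than hepatocytes moved with the interaction, chiefly those of macrophages and of stellate cells and matrix. Macrophage and Kupffer cell markers gave 20 higher and 0 lower of 25, with a median of 1.36, and their summed intensity was 9250 to 12000 in wild type, 11000 to 16300 in knockout chow and 28500 to 40300 in knockout VLF livers. Cd14, the endotoxin co-receptor, was 88.1, 104, 120, 107 and 130 in wild-type chow and 94.7, 97.7, 108, 112 and 101 in wild-type VLF livers. It was 92.7, 113, 168, 109 and 112 in knockout chow and 5230, 1100, 4610, 3360 and 4970 in knockout VLF livers. Knockout VLF replicate 2 was lowest of its group but above all other groups (4.95 ± 0.43, limma adjusted p = 1.64e-07).

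The phagocyte genes Cd68 and Ctss had 1.97 ± 0.18 and 1.81 ± 0.15. Gpnmb and Lgals3, of lipid-laden macrophages, had 4.20 ± 0.26 and 4.20 ± 0.23. Chil3 and Mmp12, macrophage products, rose from the floor of 16, the former at the floor on 14 of the other 15 arrays and the latter on all 15, to 323 ± 111 and 230 ± 77.4. Lyz2, lysozyme of myeloid cells, fell in wild type from 779 ± 99.3 to 509 ± 51.9 and rose in knockout from 742 ± 55.5 to 1810 ± 440 (1.86 ± 0.20). The 5 markers not called included Clec4f and Timd4, which mark resident Kupffer cells. How far more cells or more RNA per cell make up these values was not tested.

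Neutrophil markers gave 3 higher (27.3%, against 13.6% of all genes) and 0 lower of 11. The counts were 5 and 0 when centred on hybridization controls and 2 and 0 without knockout chow replicate 3. S100a8 was 32.9 to 76.0 in wild-type chow and 45.4 to 69.6 in wild-type VLF livers. It was 148, 86.6, 580, 116 and 64.8 in knockout chow and 2940, 775, 859, 404 and 729 in knockout VLF livers. The knockout groups overlapped through chow replicate 3, and the interaction was 2.66 ± 0.72 (limma adjusted p = 0.0124), or 3.17 without that array. S100a9, its partner, had 2.11 ± 0.60, and Mmp8 0.72 ± 0.23, a call lost in 7 settings. Summed neutrophil markers were 606 to 796 in wild type, 690 to 1530 in knockout chow and 1190 to 5380 in knockout VLF livers. These sums include S100a8 and S100a9, which were 2940 and 1550 in knockout VLF replicate 1, and 8 of the 11 markers were not called. The sums therefore do not show a rise across the markers. Of 13 lymphocyte and NK markers 0 were called (median 0), with sums of 596 to 775 in wild type and 546 to 671 in both knockout groups.

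Stellate cell and matrix genes gave 14 higher and 0 lower of 22 (median 0.80), with sums of 4060 to 5750 in wild type, 4300 to 5070 in knockout chow and 7720 to 10300 in knockout VLF livers. Timp1, an inhibitor of matrix proteases, had 1.76 ± 0.19, vimentin (Vim) 1.96 ± 0.29, the collagen chain Col1a2 1.28 ± 0.17 and decorin (Dcn) 1.06 ± 0.10. Of 11 cholangiocyte markers 3 were higher, Sox9 (1.10 ± 0.17), Cldn4 (1.72 ± 0.22) and Anxa3 (1.50 ± 0.15), and 0 lower, while the keratins Krt7 and Krt19 were not called. The share called higher was 27.3%, against 13.6% of all genes. Under centring on hybridization controls 6 of these markers were higher, against 3965 of all 16174 genes measured there. Sinusoidal endothelial markers gave 1 higher and 3 lower of 15 (median -0.11), against 13.6% of all genes each way. The counts were 1 and 5 without knockout chow replicate 3, and 1 and 1 under centring on hybridization controls (median 0.23). The higher was Lyve1 (1.81 ± 0.52) and the lower were Clec4g (-0.65 ± 0.18), Oit3 (-0.84 ± 0.11) and Tek (-0.47 ± 0.14).

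**Figure D4:**
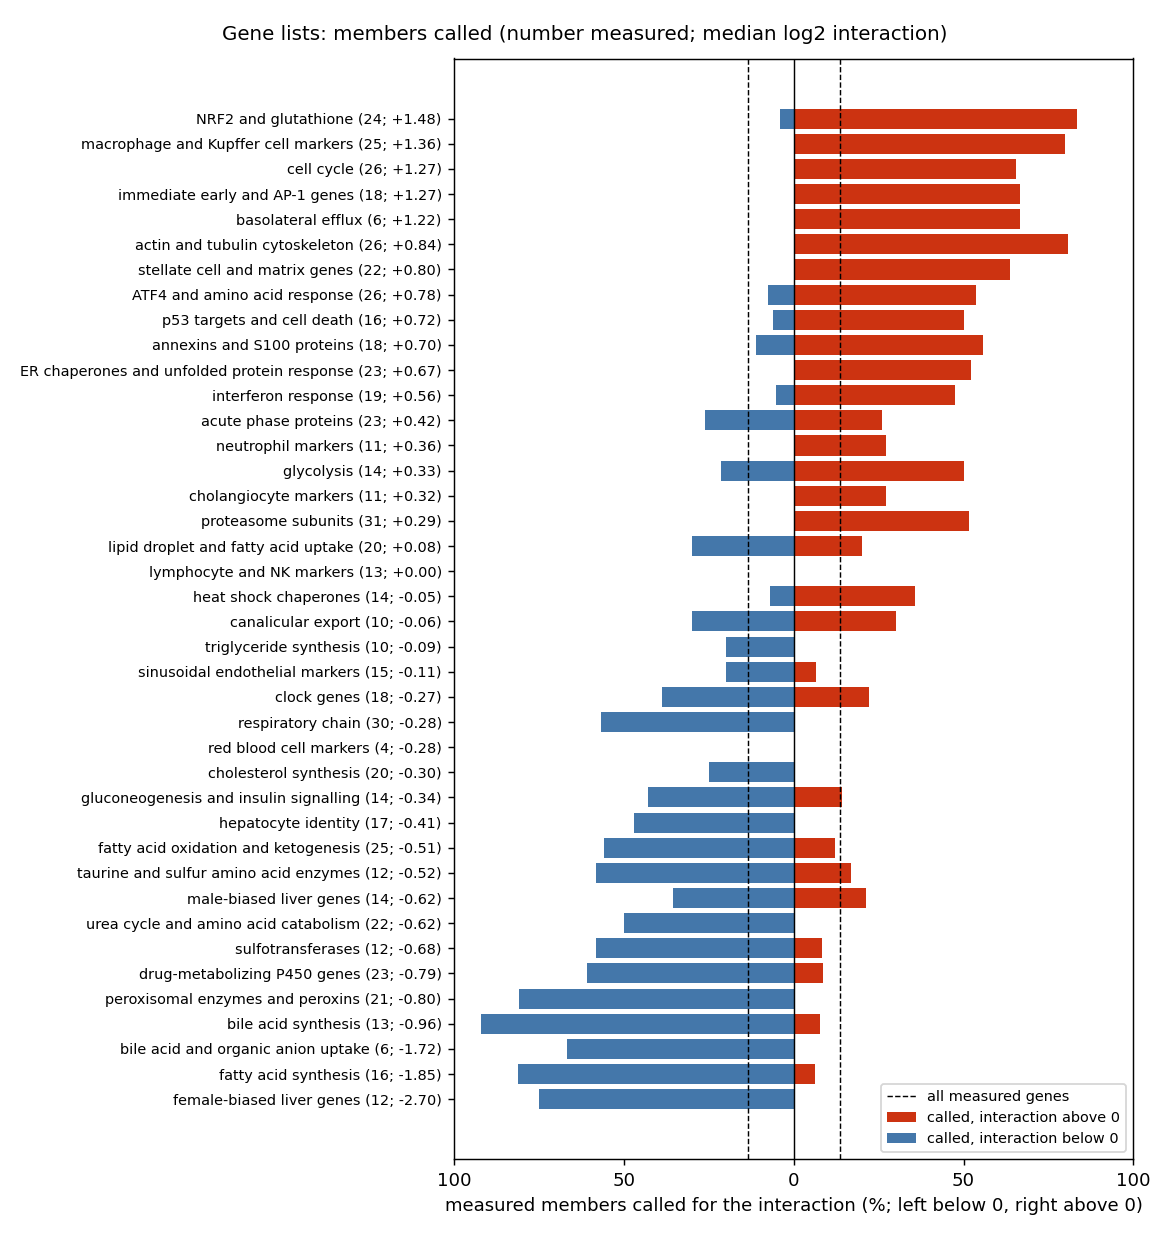
Share of measured members called for the interaction in each gene list, above 0 to the right and below 0 to the left, with the number measured and the median log2 interaction after each name. Dashed lines mark the 13.6% of all measured genes called in each direction. NRF2, macrophage and cytoskeleton lists extend furthest to the right, and bile acid synthesis, fatty acid synthesis and peroxisomal lists furthest to the left.

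Lcn2, the siderophore-binding lipocalin of the acute phase, was 281, 146, 158, 83.4 and 95.3 in wild-type chow and 127, 91.4, 221, 166 and 145 in wild-type VLF livers. It was 200, 158, 6560, 249 and 227 in knockout chow and 9160, 7940, 8500, 7900 and 9110 in knockout VLF livers. Replicate 3 of knockout chow stood near the VLF livers, and the interaction was 4.32 ± 1.01 with it and 5.32 without it (limma adjusted p = 0.00451 and 4.06e-08). Acute phase genes as a list gave 6 higher and 6 lower of 23 (26.1% each way, against 13.6% of all genes). They gave 12 higher and 6 lower without that array, and 8 higher and 3 lower when centred on hybridization controls. Ceruloplasmin (Cp) had 0.89 ± 0.11, whereas Crp and Itih4 had -1.42 ± 0.14 and -1.02 ± 0.16. Interferon-stimulated genes gave 9 higher and 1 lower of 19. Rsad2 and Oasl1, antiviral effectors, had 2.71 ± 0.47 and 2.13 ± 0.36, and Stat2 was the lower (-0.90 ± 0.16; adjusted p = 0.159 when centred on hybridization controls).

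The largest negative interaction was that of Sult3a1. This sulfotransferase was 1480, 1010, 2110, 2030 and 529 in wild-type chow and 1020, 1320, 1260, 1600 and 1290 in wild-type VLF livers. It was 1240, 886, 1060, 1520 and 1560 in knockout chow livers and at the floor of 16 in all 5 knockout VLF livers. The first 3 groups overlapped, and the floor limits the interaction of -6.27 ± 0.39 (limma adjusted p = 3.03e-09). Car3, an abundant carbonic anhydrase of liver, was 8730 to 11700 in wild-type chow, 8890 to 9810 in wild-type VLF, 6090 to 11200 in knockout chow and 91.1 to 587 in knockout VLF livers (-5.24 ± 0.45). Sult2a8, a bile acid sulfotransferase, fell in both genotypes, from 4150 ± 665 to 1970 ± 454 in wild type and from 4530 ± 824 to 55.0 ± 12.6 in knockout (-5.28 ± 0.26). Serpina6, which carries glucocorticoid in blood, had -4.82 ± 0.38, and Dio1, which activates thyroid hormone, -4.19 ± 0.38.

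Of 12 measured female-biased liver genes 9 were lower and 0 higher (median -2.70). Besides Sult3a1 they included Cyp2b13 (-4.23 ± 0.34), Cyp2b9 (-3.40 ± 0.13), Cyp17a1 (-4.11 ± 0.60) and the repressor Cux2 (-2.87 ± 0.35). Of 14 male-biased genes 5 were lower and 3 higher, with a median of -0.62, and under centring on hybridization controls 2 were lower and 3 higher (-0.27). The pheromone-binding Mup3 had -2.63 ± 0.23 and the nudix hydrolase Nudt7 -1.98 ± 0.16. The 3 higher were Gstp1, Cyp4a12a (1.73 ± 0.41, with 3 livers at the floor, and lost with a floor of 32) and Cyp2d9. Mup10, of the same family as Mup3, had -4.88 ± 0.34 with 3 of 5 knockout VLF livers at the floor. These urinary proteins have near-identical copies that a probe set may not separate.

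Cyp2d9, a steroid hydroxylase, was 613, 1190, 587, 849 and 467 in wild-type chow and 293, 292, 416, 386 and 335 in wild-type VLF livers. Livers of the knockout had 973, 1320, 865, 905 and 1050 on chow and 2280, 5800, 3430, 3550 and 4640 on the VLF diet. The wild-type groups did not overlap each other, nor did the knockout groups, and the interaction was 2.94 ± 0.34 (limma adjusted p = 4.44e-06). Of 23 drug-metabolizing P450 genes 14 were lower and 2 higher, or 8 and 3 when centred on hybridization controls. Cyp2c54 fell in both genotypes, from 5740 ± 1240 to 1480 ± 723 in wild type and from 6860 ± 1210 to 211 ± 57.1 in knockout (-2.97 ± 0.41). The P450 gene Cyp2c23 and the cytokine receptor gene Lifr did the same, with -2.38 ± 0.20 and -2.36 ± 0.23. Sulfotransferase genes gave 7 lower and 1 higher of 12, or 4 and 2 under that centring. The higher in the first count was Sult1e1, which inactivates oestrogen. It was at the floor in all wild-type chow livers, in 2 wild-type VLF and in 2 knockout chow livers, and averaged 529 ± 304 in knockout VLF livers (3.46 ± 0.72). Sult2a2 had -3.92 ± 1.14 with neither diet response called.

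Hepatocyte identity genes gave 8 lower and 0 higher of 17 with a median of -0.41, and 3 lower and 2 higher with a median of -0.03 when centred on hybridization controls. Their summed intensity was 98500 to 105000 in wild type, 96500 to 98700 in knockout chow and 93400 to 97900 in knockout VLF livers. The transcription factor Cebpa fell in the knockout from 2210 ± 457 to 663 ± 87.5 (-1.83 ± 0.19). The nuclear receptors Nr1i3 (CAR) and Nr1h4 (FXR) had -1.71 ± 0.20 and -1.35 ± 0.18. Onecut1, another hepatocyte factor, rose in wild type from 177 ± 76.5 to 455 ± 119 and was 146 ± 14.8 and 156 ± 48.5 in knockout (-1.37 ± 0.36; adjusted p = 0.0509 when centred on hybridization controls). Rdh16, a retinol and steroid dehydrogenase, reversed, from 387 ± 47.9 to 856 ± 175 in wild type and from 411 ± 28.5 to 80.1 ± 18.2 in knockout (-3.52 ± 0.22). Albumin (Alb), transthyretin (Ttr) and Apoa1, which define the tissue, were not called.

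Clock genes gave 4 higher and 7 lower of 18 (22.2% and 38.9%, against 13.6% of all genes each way). Their median of -0.27 became 0.07 under the control centring. Dbp, an output factor of the clock, was 1460 ± 678 and 2500 ± 372 in wild type and 2010 ± 400 and 246 ± 93.1 in knockout (-4.01 ± 0.44). Per2 rose in the wild type alone (-1.22 ± 0.20). Arntl, Nfil3 and Cry1, which peak at another time of day than Dbp, had 1.37 ± 0.26, 1.80 ± 0.34 and 1.24 ± 0.31, and the Arntl call was lost without probe sets that can match several transcripts (adjusted p = 0.176). Rgs16, a rhythmic regulator of G-protein signalling, had -4.01 ± 0.61. The labels do not state the time of day at which livers were taken, and its part in these values was not tested.

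Another pattern set wild-type chow livers apart. Csad, which makes the taurine precursor, was 1250, 1340, 1510, 536 and 1370 in wild-type chow livers and 203, 226, 101, 156 and 189 in wild-type VLF livers. Knockout values were 326, 155, 133, 270 and 122 on chow and 87.6, 236, 116, 145 and 130 on the VLF diet. Wild-type chow alone was high, so that the positive interaction of 2.29 ± 0.48 (limma adjusted p = 0.00165) is a fall in wild type with none called in knockout. Dnase2a, the lysosomal nuclease, followed the same pattern (998 ± 277, 199 ± 65.9, 221 ± 105 and 163 ± 74.8 in the same group order, 1.94 ± 0.50). It was read from a probe set of the kind that can match several transcripts. Its wild-type chow values were 1170, 973, 1190, 526 and 1130, lowest in replicate 4 as those of Csad were. Whether that probe set also detects Csad RNA was not tested. The taurine and sulfur amino acid list gave 2 higher and 7 lower of 12, and 3 higher and 2 lower under the control centring. The taurine transporter Slc6a6 was the other higher member (1.42 ± 0.27), and Gamt, of creatine synthesis, had -2.06 ± 0.23.

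Seen by genotype, the interaction split differently. Of the called genes 2057 were higher and 1970 lower in the knockout on the VLF diet with no called difference on chow. Only 45 were higher and 27 lower on chow without a called difference on the VLF diet. The genotype difference was called on both diets in opposite directions in 46 genes, 37 higher on chow and lower on the VLF diet and 9 the reverse. In Noct, a clock-linked phosphatase, wild-type chow livers were 174 to 228 and knockout chow livers 417 to 806 without overlap, while wild-type VLF (299 to 712) and knockout VLF livers (226 to 832) overlapped (interaction -1.71 ± 0.42).

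Tcim, a small growth regulator, and Kcnk5, a potassium channel, were higher in knockout than wild type on chow (by 1.07 and 1.04) and lower on the VLF diet (-0.81 and -0.56), with interactions of -1.88 ± 0.33 and -1.60 ± 0.28. Tcim was 185, 201, 185, 132 and 94.4 in wild-type chow and 259, 294, 368, 476 and 284 in wild-type VLF livers. Livers of the knockout had 554, 240, 347, 290 and 265 on chow and 192, 145, 214, 211 and 182 on the VLF diet. On each diet the genotypes did not overlap. Eps8l2, an actin regulator, and Cystm1 ran the other way, with 1.17 ± 0.19 and 1.12 ± 0.13. Tsc22d3, the glucocorticoid-induced GILZ, had 0.91 on chow and -0.77 on the VLF diet (interaction -1.69 ± 0.21), but the value was 0.04 (limma adjusted p = 1) when probe sets that can match several transcripts were left out.

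**Figure D5:**
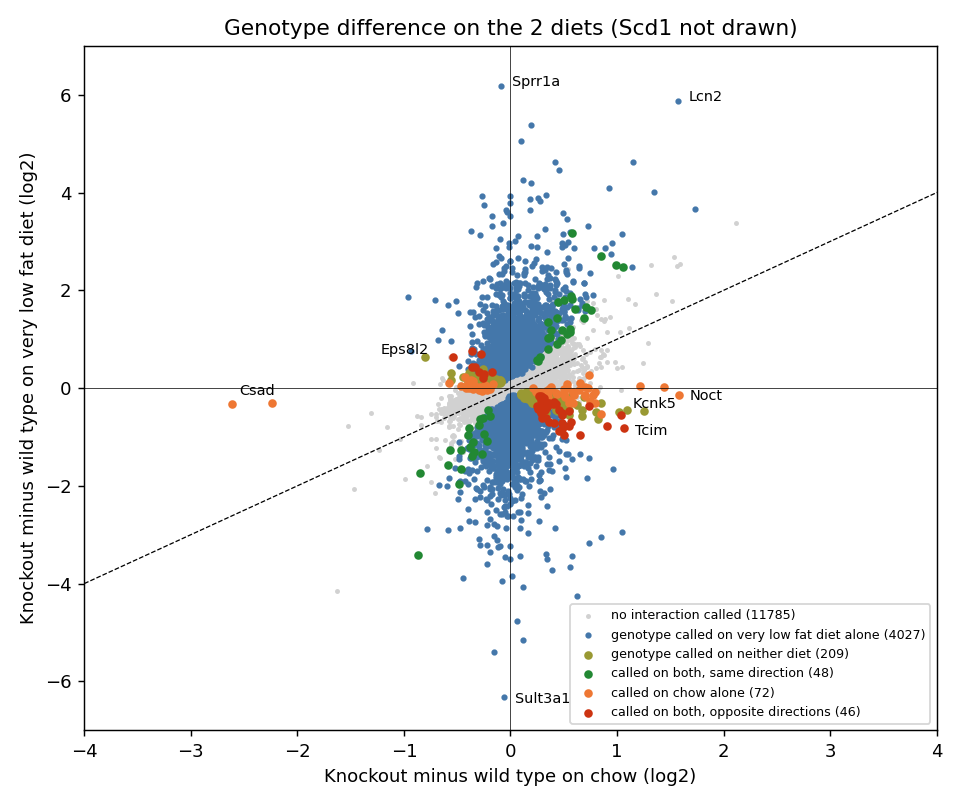
Genotype difference (knockout minus wild type, log2) on chow on the x axis and on the VLF diet on the y axis, 1 point per measured gene except Scd1, coloured by the diets on which genotype was called among genes with a called interaction. Points on the dashed line differ alike on both diets. The vertical spread shows that most differences were on the VLF diet, and Csad, Noct, Tcim and Kcnk5 lie among the exceptions.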

How the data were processed

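Liver RNA of 20 mice, 5 for each of 2 genotypes on 2 diets, was measured on 1 Affymetrix Mouse 430 2.0 array per liver, per the labels. The deposited table held 45101 probe sets as intensity on a linear scale. Both MAS5 and RMA appear, per the submitters' processing notes, without a statement of which produced these values.

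Each array was divided by its median relative to the others, values under 16 were set to 16, and the log2 values were quantile-normalized. Leaving out 64 control probe sets left 45037 to test, of which 9114 lay at the floor on all arrays and counted as unchanged in the adjustment and 6689 on some, where folds are limited by the floor. Group means were fitted to all 20 arrays with limma 3.58.1 in R 4.3.3 (lmFit and eBayes, residual degrees of freedom 16, prior 1.94), with p-values adjusted by Benjamini-Hochberg across the whole table and a threshold of 0.05. Values printed per liver are normalized intensity. The interaction, both genotype contrasts and both diet contrasts came from this fit, so that they share arrays. The number of arrays limits the precision.

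A probe table of GEO's older platform annotation gave 34945 probe sets a single gene, 932 several and 9160 none. By Entrez ID 34741 were found in the RefSeq table, and 0 symbols changed. The brightest probe set stood for each of 18193 genes, and 16188 were above the floor somewhere. Of 2365 called genes with other probe sets, 66 had another called in the opposite direction. Other probe sets could also differ in size. That of Cdkn1a gave 1.41 ± 0.19, and 1 each of Abcc1 (0.21 ± 0.11), Acot2 (0.59 ± 0.26) and Sox9 (0.45 ± 0.16) was not called. Some gave larger values, as for Abcb1a (2.47 ± 0.17).

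The members, the 41 gene lists and the tests were chosen with earlier results of these data known. Named genes were the 12 largest called interactions in each direction, per list the members with the lowest adjusted p (4 at most), the 4 largest of each diet class, preset genes and members called against their list. Others were chosen after their values were seen, among them Acly, Acacb, Elovl5, Ugdh, Ephx1, Gss, Lyz2, Fabp2, Pgd, Onecut1, Tcim, Kcnk5, Tsc22d3, Noct, Txnrd1, Nqo1, Asns, Creld2, Eps8l2 and Cystm1, and those under the other observations. Lists have no test, and their counts in the main fit are to be read against the 13.6% of all genes called in each direction. Counts centred on hybridization controls are to be read against 3965 higher and 618 lower of 16174 genes. The fit was tested on simulated data. Alternatives changed the normalization, the centring, the floor, the probe sets, the variance model and the array weights, added a replicate block, or left out each array. Promoters are from RefSeq (GRCm38.p6). Figures were drawn with Python and matplotlib.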

Additional observations from a re-analysis of the deposited data

Results flagged for a closer look

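A difference between diets in the genotype effect is what the interaction tests, so all 4403 called genes meet that description and are given above. The 5 named genes whose genotype effect was called in opposite directions on the 2 diets were Tcim (-1.88), Tsc22d3 (-1.69), Kcnk5 (-1.60), Eps8l2 (1.17) and Cystm1 (1.12, log2 interaction).

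Single livers far from the other 4 of their group, by Dixon's criterion, were found in 51 of 764 pairs of a named gene and a group, and chance marks about 1 in 20. Knockout chow replicate 3 gave 20 of the 51. It was high, with the nearest liver in brackets, for Lcn2 at 6560 (249), Lgals3 at 322 (195), Chil3 at 24.0 (16), Ly6d at 112 (59.1), Dio1 at 1890 (1520), Asns at 282 (45.7), Itih4 at 15000 (10400), Igfbp1 at 6790 (1820), Pkm at 108 (90.9) and Aldoa at 708 (532). It was low for Sult2a8 at 3060 (4760), Car3 at 6090 (10100), Cyp2b13 at 1180 (1890), Pklr at 330 (548), Dgat2 at 2300 (3050), Slco2b1 at 999 (1140), Cebpa at 1440 (2280), Fabp1 at 14600 (16500), Ghr at 3020 (3800) and Ces1f at 2310 (3110). For each of these genes except Dio1 and Itih4 the displacement pointed toward the knockout VLF livers. Without this array the interaction was called in 4596 genes, 4184 of them among the 4403.

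Knockout VLF replicate 2 was low for Cd14 at 1100, Hspa5 at 6990, Cidea at 56.3 and Stard4 at 132, and high for Thrsp at 1150, Nqo1 at 461 and Anxa3 at 330. In the same group replicate 5 was low for Cebpa at 511, and replicates 4 and 1 were high for Insr at 361 and Ces1e at 64.6. Among wild-type chow livers replicate 2 was high for Abcb11 at 3250, Txnrd1 at 728 and Cdkn1a at 128 and low for Ndufs1 at 549 and Gamt at 904. Replicate 5 was low for Dio1 at 741, Rgs16 at 122, Slco1b2 at 3150, Per2 at 45.1 and Fabp1 at 13900. Replicate 4 was low for Csad at 536 and Dnase2a at 526, and replicate 1 was high for Nupr1 at 57.6 and Ces1f at 3750.

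Among wild-type VLF livers replicate 1 was low for Gpnmb at 32.5 and Oit3 at 232, replicate 2 low for Lgals3 at 128, replicate 3 high for Sult1e1 at 29.6, replicate 4 high for Ly6d at 125 and replicate 5 low for Fgf21 at 58.0. Knockout chow replicate 4 was low for Abcb1a at 46.9.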

How the results depend on the processing

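The counts of genes called higher and lower stayed within 1.5 times of 2206 and 2197 under every alternative tried except centring on hybridization controls, which gave 3965 and 618. With each array left out in turn they ran from 2052 to 2328 and from 2032 to 2268. The class in which only the knockout response was called ran from 3714 to 4127 genes and the class with neither response called from 209 to 286. The smaller classes moved more: opposite 37 to 90, wild type only 21 to 63 and same direction 32 to 72. Without wild-type VLF replicates 1 and 4 the opposite class fell to 43 and 40, the wild-type-only class to 25 and 21 and the same-direction class to 33 and 32. Without wild-type chow replicates 1, 2 and 3 the wild-type-only class fell to 24, 29 and 33, and without replicates 1 and 2 the opposite class to 37 and 49. Median scaling without quantile normalization gave 49 opposite and 29 same-direction genes. Hybridization centring gave 18 genes with only the wild-type response called, 6 opposite, 8 same-direction and 122 with neither. Limiting the fit to the 6326 genes with a mean log2 of 7 or more gave 86, 136, 113 and 144 in the same order, and array weights gave 84, 133 and 100 in the first 3 classes.

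Same-numbered livers of different groups did not deviate together: over 30 pairs the correlation was -0.25 to 0.27 and exceeded 0.1 in 5, so the numbers were not taken as pairs. The fit with a replicate block called 4260 genes, 2134 higher and 2126 lower, with 4128 of the 4403 kept; among named genes it changed the call of Hsph1 alone. Of 189 called genes named, 163 kept their call and direction under all alternatives in which they were measured. Some alternatives left genes out, and the limit to a mean log2 of 7 or more kept 151 of the 191 genes checked. The direction turned in Tsc22d3 alone, to 0.04 when probe sets ending in _x_at, _s_at or _a_at were left out. Values at the floor limit the size of an interaction. With 5 arrays a group the median standard error was 0.13, and an interaction has to exceed its standard error several-fold to be called. Fgf21, at 0.80 ± 0.29 (limma adjusted p = 0.0677), was not called.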

Other observations

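Other genes outside the lists, chosen after their values were seen, had large interactions through the knockout on the VLF diet. The simple-epithelial keratins Krt8 and Krt18, the filament pair of hepatocytes and bile ducts, rose together. Krt8 was 1310 ± 265 and 1000 ± 118 (mean ± SD, n = 5) in wild-type chow and VLF livers and 1370 ± 203 and 8700 ± 1330 in knockout chow and VLF livers, an interaction of 3.04 ± 0.19. Krt18 had 2.52 ± 0.20, the secreted protease inhibitor Slpi 3.63 ± 0.22 and the stress-induced chromatin protein Nupr1 3.50 ± 0.33. In all 4 genes the 5 knockout VLF livers lay above the other 15 arrays.

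On the lower side were genes of growth hormone action and of ester hydrolysis. Ghr, the growth hormone receptor, was 3860 ± 306 and 3670 ± 285 in wild type and 3800 ± 461 and 693 ± 100 in knockout (-2.39 ± 0.14), and Igfals, a serum partner of IGF1, had -2.08 ± 0.27. The carboxylesterases Ces1d, Ces1e and Ces1f had -2.92 ± 0.24, -2.79 ± 0.24 and -3.38 ± 0.20. These are close paralogs that a probe set may not separate. G0s2, an inhibitor of the triglyceride lipase ATGL, was 1290, 1170, 1440, 1800 and 694 in wild-type VLF livers and 593, 114, 91.2, 68.4 and 56.6 in knockout VLF livers (-3.17 ± 0.79, limma adjusted p = 0.00713). Knockout VLF replicate 1 lay within the knockout chow range of 276 to 1160, and the other 4 lay below it.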
